A study of Homo sapiens with 6 samples.

Results

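The genes described here are the 28 protein-coding genes of the cytosolic small ribosomal subunit: RPSA, RPS2, RPS3, RPS3A, RPS4X, RPS6, RPS7, RPS9, RPS10, RPS12 to RPS16 with RPS15A, RPS18 to RPS21, RPS23 to RPS29 with RPS27A, and FAU. They were chosen by name, not by their values. Each was matched to 1 Ensembl gene identifier in the deposited tables, pseudogenes were left out, and all 28 were found among 57500 genes, of which 57465 are nuclear and 35 lie on the mitochondrial chromosome. RNA had been taken from mitochondria isolated with a kit from HepG2 cells, an established human line from a liver tumour, after 48 h with GenX, a short-chain per- and polyfluoroalkyl substance used to replace older fluorinated surfactants. There were 3 groups of 2 libraries each: control cells given the DMSO vehicle with 0 µM GenX, cells given 10 µM and cells given 100 µM. All 6 libraries are labelled wild type and batch 1, and all cells were grown in DMEM with 10% fetal bovine serum. Nothing in the labels says whether the 2 libraries of a group came from separate cultures, so the p-values measure only the spread between these libraries, which may be technical.

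The small ribosomal subunit binds messenger RNA, scans it for the start codon and holds the decoding centre where each codon meets its transfer RNA. Its proteins are nuclear-encoded and made in the cytosol, and their mRNAs are among the most abundant in dividing cells. They are known as TOP mRNAs because most begin with a cytosine followed by a run of pyrimidines, through which their translation responds together to growth signals. Cytosolic ribosomes also lie on the outer face of mitochondria, so a mitochondrial preparation can hold cytosolic mRNA that is attached to the organelle or carried along with it. In bulk samples of this kind, fewer cells of a type and less RNA per cell cannot be told apart.

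The start sites of these genes are shown first, because the pyrimidine run is the sequence feature that sets them apart from most genes and it played no part in choosing them. RefSeq promoter sequences of the GRCh38.p14 build were matched by symbol for 25 of the 28 genes, all but RPS2, RPS15A and RPS20, with 28 start sites. The letters CTTTC or CTTTT were looked for on the gene's own strand in the 30 bases around each start, 15 before it and 15 from it onward. Capitals mark each match in the windows below, which run 5′ to 3′ on the gene's strand. RPS6, the subunit protein phosphorylated by S6 kinase, lies on the minus strand at chr9:19380222-19380251. RPS24, a protein of the subunit body, is on the plus strand at chr10:78033848-78033877. RPSA, which is also known as the laminin receptor precursor, is on the plus strand at chr3:39406705-39406734. RPS12, in the beak of the head, is on the plus strand at chr6:132814554-132814583. RPS3, at the mRNA entry channel, is on the plus strand at chr11:75399503-75399532, and RPS19, the gene most often mutated in Diamond-Blackfan anaemia, is on the plus strand at chr19:41860240-41860269. FAU, which encodes a ubiquitin-like protein fused to a subunit protein, is on the minus strand at chr11:65122120-65122149, and RPS27, a zinc-binding subunit protein, is on the plus strand at chr1:153990747-153990776.
RPS6: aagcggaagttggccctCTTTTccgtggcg
RPS24: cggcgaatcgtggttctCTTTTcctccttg
RPSA: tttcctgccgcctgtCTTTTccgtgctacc
RPS12: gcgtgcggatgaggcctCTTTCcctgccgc
RPS3: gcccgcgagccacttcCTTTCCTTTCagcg
RPS19: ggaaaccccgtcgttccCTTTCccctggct
FAU: cgccctcgcttcttcctCTTTCtcgactcc
RPS27: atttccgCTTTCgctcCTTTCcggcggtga

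RPS18 (plus strand, chr6:33272060-33272089) and RPS4X (minus strand, chrX:72277234-72277263) are shown for contrast, since neither window holds these letters although RPS18 has a pyrimidine run of other letters.
RPS18: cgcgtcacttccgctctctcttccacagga
RPS4X: gcagtctccagccccaatttctacgcgcac

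Of the 25 genes, 18 held CTTTC or CTTTT in the window of at least 1 start (72%), against 9.71% of the 27305 genes in the RefSeq table. RPS19 and RPS27A, the 2 genes with more than 1 start, each also had a start without the letters. The 7 without it were RPS4X, RPS7, RPS15, RPS18, RPS26, RPS28 and RPS29. On the other strand 0 of the 25 genes held the letters, against 6.83% of all genes. The genes of the large ribosomal subunit stood at nearly the same share, 28 of 38 (73.7%). The annotated first base was C at 1 or more starts in 21 of the 25. In the full 300-base promoter windows, CGGAAG on either strand, the core that ETS-family factors bind, was present in 18 of 25 genes against 22.6% of all genes. TATAAA on either strand was present in 2 of 25 (8%), against 14.0% of all genes. A match is a run of letters and not a measured site, and the counts below do not test transcription starts.

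Depth differed widely between the libraries and limits what can be read from the 10 µM group. Total gene counts ranged from 29350 to 2141282, and counts on nuclear genes from 11406 in 10 µM replicate 2 to 2064527 in 100 µM replicate 1. Nuclear genes took 95.6% and 89.6% of the counts in the vehicle controls, 56.3% and 38.9% with 10 µM, and 96.4% and 96.7% with 100 µM. A gene's level is given below as nuclear CPM, its counts scaled to a library of 1000000 counts on nuclear genes. One count was worth 4.34 and 18.3 nuclear CPM in the vehicle controls, 40.8 and 87.7 with 10 µM, and 0.484 and 0.773 with 100 µM. Of 19 hepatocyte markers between 6 and 16 had a count in each library, while FGA was at 0 in all 6 and AFP was at 0 in all 4 control and 10 µM libraries. Of 8 markers of leukocytes, endothelium and fibroblasts 2 to 4 had a count, taking 0.00348% to 0.0789% of nuclear counts, and PTPRC, CD3E and CD68 were at 0 in every library.

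Together the 28 genes held far less of the nuclear RNA in both 10 µM libraries than in any other library. They took 1.56% and 2.48% of nuclear counts in the controls (3601 and 1349 counts), 0.0775% and 0.263% with 10 µM (19 and 30 counts), and 1.78% and 2.09% with 100 µM (36823 and 27031 counts). The highest 10 µM share was below the lowest share in the 4 other libraries, and the control and 100 µM ranges overlapped. Exact 95% binomial intervals, which cover counting error only, ran from 0.0467% to 0.121% and from 0.178% to 0.375% with 10 µM, and from 1.51% to 1.62% for the lower control. The group means were 2.02% ± 0.644 in the vehicle controls, 0.170% ± 0.131 with 10 µM and 1.94% ± 0.216 with 100 µM (SD, n = 2 each).

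The control mean was thus 11.9 times the 10 µM mean, a difference of -1.85 percentage points for 10 µM minus control. An exact two-sided permutation test of the 2 against 2 libraries gave p = 0.333, the smallest value this design allows. The 100 µM mean was 11.4 times the 10 µM mean, with the same exact permutation p of 0.333. Between 100 µM and control the difference was -0.0834 points (exact permutation p = 1), a ratio of 0.959 that ran from 0.782 to 1.24 when any 1 of the 4 libraries was left out, so its direction depended on single libraries. Leaving out 10 µM replicate 2 took the 100 µM to 10 µM ratio to 25, and leaving out replicate 1 took it to 7.36. The 10 µM mean was 0.0843 of the control mean, 0.0384 without 10 µM replicate 2 and 0.130 without replicate 1.

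**Figure D1:**
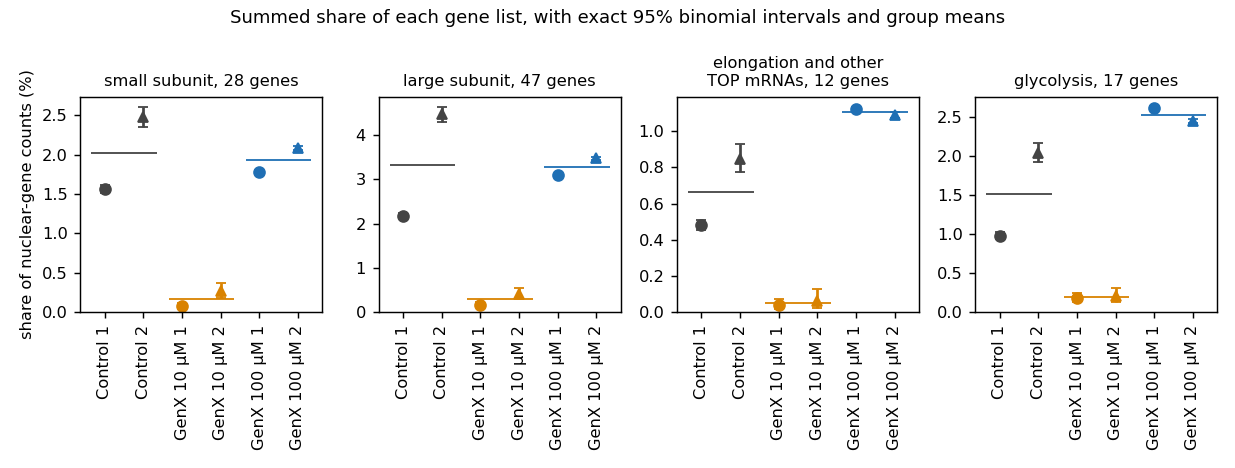
Percent of nuclear-gene counts (linear axis from 0, its own scale in each panel) held by the small-subunit, large-subunit, elongation and other TOP, and glycolysis genes. Points are the 6 libraries coloured by dose, bars are exact 95% binomial intervals and lines are group means. For the small-subunit genes the 10 µM points lie at 0.0775% and 0.263%, below all 4 other libraries, which lie between 1.56% and 2.48%.

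RNA of other kinds moved with this difference. The nuclear-retained RNAs MALAT1 and NEAT1 together took 14.5% and 6.08% of nuclear counts in the vehicle controls, 0.0857% and 0.140% with 10 µM, and 3.47% and 3.18% with 100 µM. The hepatocyte markers took 1.02% and 2.77%, then 0.0898% and 0.175%, then 1.44% and 1.37%. In all 3 sets both 10 µM libraries were the lowest of the 6. In edgeR's quasi-likelihood fit MALAT1, NEAT1 and the markers APOA2 and KRT18 were among the 19 genes that passed an adjusted p of 0.05 between 10 µM and control, all lower at 10 µM. The part of these RNAs and of depth in the small-subunit result was not tested.

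The number of genes with at least 1 count was 28 in each control library, 10 and 16 in the 10 µM libraries, and 28 in each 100 µM library. At a common depth of 11406 nuclear counts the expected number detected was 22.8 and 25.4 in the vehicle controls, 5.87 and 16 with 10 µM, and 27.3 and 27.4 with 100 µM. The 10 µM libraries remained the lowest at matched depth.

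RPS3 lines the channel through which mRNA enters the subunit (chromosome 11, 75399486 to 75422280, GRCh38 as deposited). Its level was 951.3 and 4165 nuclear CPM in the vehicle controls, 40.8 and 263 with 10 µM (1 and 3 counts), and 1017 and 1276 with 100 µM. Both 10 µM libraries lay below every other library, and the control libraries lay on either side of the 100 µM pair. With counts summed over the libraries of a group, which weights the deeper library more, RPS3 was 14.1-fold higher in the controls than at 10 µM (95% counting interval 5.45 to 51.8). The fold ran from 5.96 without 10 µM replicate 1 to 38.4 without 10 µM replicate 2. The log2 fold change in edgeR's quasi-likelihood fit was -5.40 ± 1.31 (SE, back-calculated from the test's F statistic). The Benjamini-Hochberg adjusted p of that test was 0.105 over all 3180 genes tested.

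RPS19, in the subunit head (chromosome 19, 41859918 to 41872926), had more counts at 10 µM than any other gene of the set. Its level was 1481 and 1449.5 nuclear CPM in the vehicle controls, 163 and 614 with 10 µM (4 and 7 counts), and 1203 and 1245 with 100 µM. The control pair differed by 1.02-fold, the closest agreement of any of the 28 genes between the controls, and both 10 µM libraries lay below all 4 others. The pooled level was 4.82-fold higher in the controls than at 10 µM (2.66 to 9.72), or 2.40-fold without 10 µM replicate 1 and 9.04-fold without replicate 2. The fitted log2 fold change was -3.36 ± 1.14 (SE, adjusted p = 0.146, edgeR).

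RPS27 followed another pattern and was singled out after its values were seen. It lies at 153990759 to 153992150 on chromosome 1. Its level was 56.5 and 294 nuclear CPM in the vehicle controls, 245 and 263 with 10 µM (6 and 3 counts), and 335 and 384 with 100 µM. The 10 µM libraries lay inside the control range, and its 9 counts made up a large part of the 49 that all 28 genes had at 10 µM. The pooled control level was 0.41 of the 10 µM level (0.19 to 0.98), and 1.17 times it when control replicate 1, the low library, was left out. The fitted log2 fold change was -0.42 ± 1.49 (SE, adjusted p = 0.865, edgeR), of the opposite sign to the pooled ratio.

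RPS18, RPS7, RPS12 and FAU complete the 6 most abundant genes of the set by mean share over the 6 libraries. RPS18, a head protein that contacts the large subunit, stood at 486.5 and 1688 nuclear CPM in the vehicle controls, 40.8 and 175 with 10 µM, and 1640 and 2008 with 100 µM. RPS7, a body protein, stood at 1877 and 1046, then 81.6 and 87.7, then 878 and 1254. Both genes were lower in each 10 µM library than in any other library. RPS12 stood at 1790 and 1284 in the vehicle controls, 0 and 175 with 10 µM, and 718 and 807 with 100 µM. FAU stood at 235 and 2569, then 40.8 and 87.7, then 549 and 725, so its control libraries enclosed the 100 µM pair. RPS12 differed in that both control libraries lay above both 100 µM libraries. Pooled over libraries, the control to 10 µM ratio was 8.58 for RPS18 (2.89 to 41.9), 20.6 for RPS7 (6.99 to 100.04), 30.4 for RPS12 (8.37 to 252) and 12.2 for FAU (3.34 to 102), each resting on 2 or 3 counts at 10 µM. Without 10 µM replicate 1 the ratio was 4.09 for RPS18 and 9.65 for RPS12. Without control replicate 1 it was 20.2 for RPS18, 12.5 for RPS7 and 46.1 for FAU, and without control replicate 2 it was 4.21 for FAU.

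**Figure D2:**
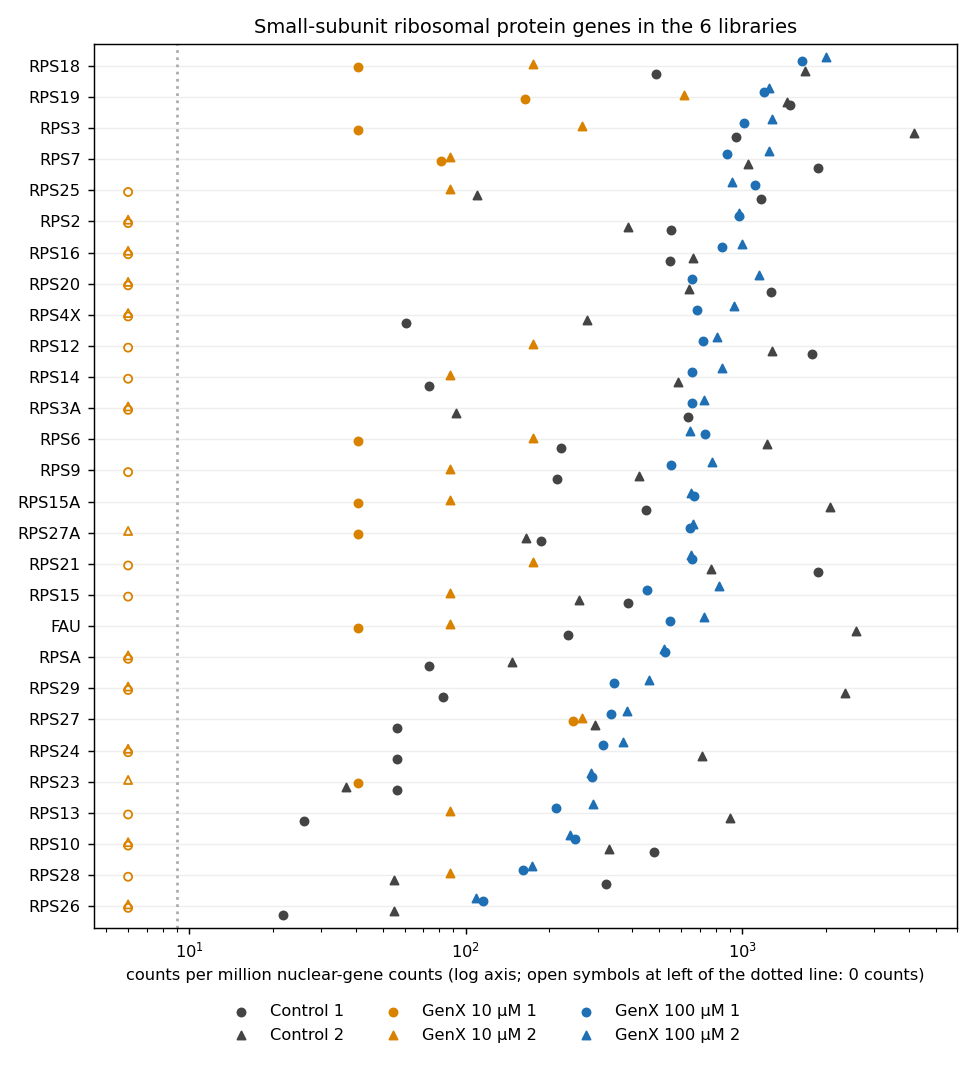
Nuclear CPM of each of the 28 genes (log axis) in each library, with libraries coloured by dose and 0 counts drawn as open symbols left of the dotted line. The 10 µM points sit at the level of 1 to 7 counts where they are above 0, and 26 of 28 genes lie within 1.5-fold between the 100 µM libraries, against 6 of 28 between the controls.

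RPS6 and RPS27A were described for their roles. RPS6 was 221.5 and 1229 nuclear CPM in the vehicle controls, 40.8 and 175 with 10 µM (1 and 2 counts), and 729.9 and 647 with 100 µM. Both its 10 µM libraries were below the other 4. RPS27A, which encodes ubiquitin fused to a subunit protein, was 187 and 165 nuclear CPM in the vehicle controls, 40.8 and 0 with 10 µM, and 645 and 665 with 100 µM. Both its 100 µM libraries lay above the other 4. The 10 µM values rest on 1 and 0 counts. In replicate 2 a count of 0 allows up to 3 counts, or 263 nuclear CPM, which is above both controls. The order of 10 µM and control is therefore not set for RPS27A.

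Both 10 µM libraries had 0 counts for 10 genes: RPSA, RPS2, RPS3A, RPS4X, RPS10, RPS16, RPS20, RPS24, RPS26 and RPS29. A count of 0 allows a level of up to 3 counts, which is 122 nuclear CPM in 10 µM replicate 1 and 263 in replicate 2. RPS20, in the head, was 1273 and 642 nuclear CPM in the controls and 659 and 1150 with 100 µM. RPS16, whose tail reaches the decoding centre, was 547 and 660.5 in the controls and 848 and 998 with 100 µM. RPS2, at the entry channel, was 552 and 385 in the controls and 972 and 969.9 with 100 µM. These 3 had levels above the 10 µM replicate 2 limit in all 4 other libraries.

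RPS3A, a platform protein, was 634 and 91.7 nuclear CPM in the controls and 659 and 729 with 100 µM. RPS10, a head protein that is ubiquitylated when ribosomes collide, was 478 and 330.3 in the controls and 248 and 238 with 100 µM. RPS29, a small zinc-binding head protein, was 82.5 and 2348.5 in the controls and 344 and 459 with 100 µM. Of these 3 the control libraries disagreed most for RPS29, and for RPS10 both stood above both 100 µM libraries.

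RPS24 was 56.5 and 716 nuclear CPM in the controls and 313 and 371 with 100 µM. RPS4X, the X-linked copy of its subunit protein, was 60.8 and 275 in the controls and 685 and 933 with 100 µM. RPSA was 73.8 and 147 in the controls and 523 and 519 with 100 µM, and RPS26, at the mRNA exit channel, was 21.7 and 55.0 and then 116 and 109. RPS4X, RPSA and RPS26 were higher in both 100 µM libraries than in either control. With RPS26, the least abundant genes by mean share were RPS23 and RPS28. RPS23 was 56.5 and 36.7 nuclear CPM in the vehicle controls, 40.8 and 0 with 10 µM, and 286 and 284 with 100 µM, and RPS28, a head protein near the mRNA exit, was 321 and 55.0, then 0 and 87.7, then 160.3 and 174. For both, the control and 10 µM libraries overlapped.

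Set against 3 counts over the pooled 10 µM libraries, the control level was at least 13.8-fold higher for RPS20, 6.81-fold for RPS16, 6.35-fold for RPS3A, 6.22-fold for RPS2, 6.18-fold for RPS29 and 5.38-fold for RPS10. The bound was 2.19-fold for RPS24, 1.22-fold for RPS4X and 1.05-fold for RPSA, and RPS26 was at or near the limit in both groups and has no fold. These bounds depend on single libraries. Without 10 µM replicate 1 they were 4.38-fold for RPS20, 2.16-fold for RPS16, 1.98-fold for RPS2, 1.71-fold for RPS10, and under 1 for RPSA and RPS4X (0.334 and 0.387). Without control replicate 1 the bound was 1.10-fold for RPS3A, 28.1-fold for RPS29, 8.57-fold for RPS24, 3.29-fold for RPS4X and 1.76-fold for RPSA, and without control replicate 2 it was 0.988 for RPS29 and 0.676 for RPS24.

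Counting genes whose 2 groups did not overlap in nuclear CPM, 23 of the 28 were lower at 10 µM than in the controls and 0 were higher. Among the 3145 nuclear genes tested 32% were lower without overlap and 11.1% higher. The 5 that overlapped were RPS13, RPS14, RPS23, RPS27 and RPS28. A gene at 0 in both 10 µM libraries counts as lower here whatever its control level, so the count was repeated with 10 µM counts under 3 set to 3, the limit above. Then 11 of the 28 were lower without overlap (RPS2, RPS3, RPS7, RPS10, RPS12, RPS15A, RPS16, RPS18, RPS19, RPS20 and RPS21), beside 6.33% of the nuclear genes tested. With this limit a gene can count as lower only if both controls exceed 263 nuclear CPM. That favours abundant genes such as these, so the share over all genes is not a like background. In the fit over all genes 0 of the 28 passed an adjusted p of 0.05, against 0.597% of the 3180 genes tested (7 higher and 12 lower, or 8 and 9 with DESeq2 size factors and 0 and 7 with library sizes alone). At an unadjusted p under 0.05, 22 of the 28 were lower and 0 higher, beside 22.3% and 5.85% of all genes tested. DESeq2's Wald test also called 0 of the 28. Adjusted p-values of the 28 ran from 0.103 for RPS20 to 0.865 for RPS27. Their median log2 fold change was -5.47, beside a median of -3.17 over all genes tested. With DESeq2 size factors these medians were -5.19 and -2.93, and with library sizes alone -5.34 and -2.88.

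The calls depended on the libraries in the fit. Without control replicate 1, 18 of 27 genes of the set passed, beside 12.8% of all genes in that fit, and without control replicate 2, 21 of 28 did, beside 12.6%. In these fits the control arm is 1 library, assumed to vary like the other groups, and the disagreement between the controls no longer enters the spread. Without any 1 of the 10 µM or 100 µM libraries 0 passed.

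The counts were also expressed per kilobase of exon, which sets the 28 genes beside all nuclear exons. Together they span 90.8 kb of exon in the deposited gene models. They had 39.6 and 14.8 counts per kb in the vehicle controls, 0.209 and 0.330 with 10 µM, and 405 and 298 with 100 µM. All nuclear genes together had 1.70 and 0.403, then 0.181 and 0.0844, then 15.3 and 9.58 counts per kb.

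The density of counts on the 28 genes was thus 23.3 and 36.8 times the density over all nuclear exons in the vehicle controls, 1.15 and 3.91 times at 10 µM, and 26.5 and 31.1 times at 100 µM. In 10 µM replicate 1 these genes, which stand well above the average exon elsewhere, were near the density of all nuclear exons. Protein-coding genes as a whole kept a ratio between 1.08 and 1.28 in all 6 libraries. The large-subunit genes gave 16.5 and 33.9, then 1.24 and 3.13, then 23.5 and 26.4.

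**Figure D3:**
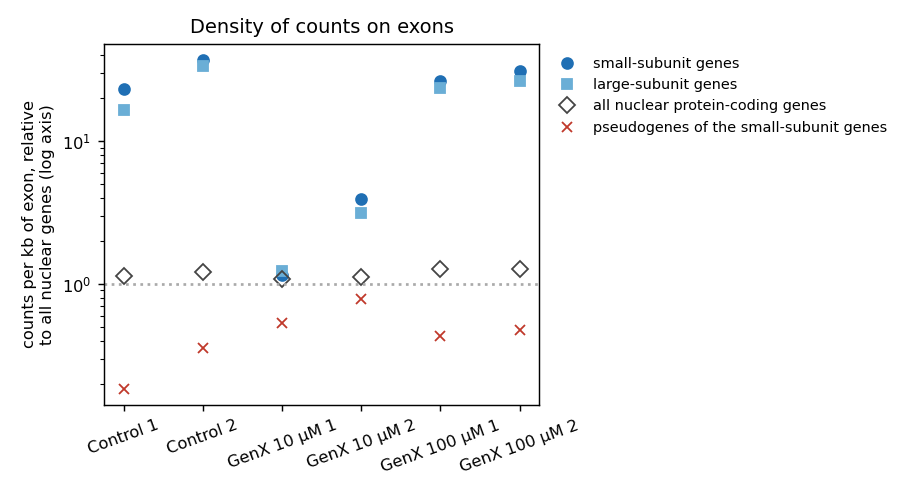
Counts per kilobase of exon divided by the same value over all nuclear genes (log axis), for the small-subunit genes, large-subunit genes, all protein-coding genes and annotated small-subunit pseudogenes in each library. The small-subunit genes lie at 1.15 and 3.91 in the 10 µM libraries and between 23.3 and 36.8 in the 4 others, and the protein-coding genes stay between 1.08 and 1.28.

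Processed pseudogenes of these genes, of which 473 are annotated, are inserted copies of the mRNAs that are mostly not transcribed from promoters of their own. They had 81 and 37 counts in the vehicle controls, 25 and 17 with 10 µM, and 1702 and 1179 with 100 µM. As a share of the counts on the 28 genes and their pseudogenes together, this was 2.20% and 2.67% in the vehicle controls, 56.8% and 36.2% with 10 µM, and 4.42% and 4.18% with 100 µM. The 10 µM intervals, from 41.0% to 71.7% and from 22.7% to 51.5%, lay above every other library's. The density of counts on the pseudogenes was 0.185 and 0.356 times that of all nuclear exons in the vehicle controls, 0.536 and 0.783 times at 10 µM, and 0.433 and 0.478 times at 100 µM. Reads from a gene and from a near-identical pseudogene can be split by the counting, so the levels of the 28 genes carry that uncertainty, and at 10 µM it touches a larger share of the counts. The pseudogene share was highest where the genes' own share was lowest, and its part in the result was not tested.

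At 100 µM all 28 genes were higher in both libraries than in either 10 µM library, without overlap, beside 63.8% of the 3145 nuclear genes tested that were higher in that way and 7.63% that were lower. With 10 µM counts under 3 set to 3 the count was 24 of 28, beside 17.5%. Here too only genes above 263 nuclear CPM in both 100 µM libraries can count as higher, which favours abundant genes such as these. RPS27 showed the smallest difference among the 18 genes with a count at 10 µM. Pooled over libraries its 100 µM level was 1.41-fold the 10 µM level (0.74 to 3.10), and the fitted log2 fold change was 1.15 ± 1.48 (SE, adjusted p = 0.552, edgeR). RPS19 was 3.98-fold higher (2.22 to 7.98), from 1.99-fold without 10 µM replicate 1 to 7.47-fold without replicate 2, with a fitted log2 fold change of 2.54 ± 1.11 (adjusted p = 0.133, edgeR).

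RPS3 was 10.03-fold higher at 100 µM than at 10 µM (3.91 to 36.8), from 4.25-fold without 10 µM replicate 1 to 27.4-fold without replicate 2. RPS18 was 21.3-fold higher (7.29 to 103), RPS6 8.35-fold (2.86 to 40.5) and FAU 11.1-fold (3.06 to 91.5). Without 10 µM replicate 1 these were 10.2, 3.98 and 7.04, and without replicate 2 RPS18 was at 43.7 and RPS6 at 17.1. For the genes at 0 with 10 µM the bounds were at least 11.6-fold for RPS2, 10.8-fold for RPS16, 10.2-fold for RPS20, 9.35-fold for RPS4X, 8.21-fold for RPS3A and 6.24-fold for RPSA. The smaller bounds were those of RPS29 (4.65), RPS24 (4.01), RPS10 (2.92) and RPS26 (1.35). Without 10 µM replicate 1 these bounds ran from 3.69 for RPS2 down to 0.430 for RPS26.

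None of these differences passed the test across all genes. Of the 28, 0 passed an adjusted p of 0.05 in edgeR's quasi-likelihood fit, against 2.86% of the 3180 genes tested (24 higher and 67 lower, or 11 and 70 with DESeq2 size factors and 68 and 91 with library sizes alone), and 0 passed in DESeq2's Wald test. At an unadjusted p under 0.05, 24 of the 28 were higher and 0 lower, beside 29.6% and 6.64% of all genes tested. With library sizes alone RPS18, RPS20, RPS2 and RPS16 passed, beside 5% of all genes tested. Adjusted p-values ran from 0.0648 for RPS20 to 0.552 for RPS27. The median log2 fold change was 5.06, beside 3.52 over all genes tested. Both comparisons of the 10 µM group use the same 2 shallow libraries, so they are not separate evidence. Without control replicate 1, which removes the spread between the controls from the fit, 25 of 27 genes of the set passed, beside 36.1% of all genes in that fit. Without control replicate 2, 24 of 28 did, beside 18.6%, and without any 1 of the 10 µM or 100 µM libraries 0 did.

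Between 100 µM and control the genes did not share a direction. Without overlap, 12 of the 28 were higher at 100 µM and 4 were lower, beside 48.3% and 9.57% of the 3145 nuclear genes tested. The 12 were RPSA, RPS2, RPS3A, RPS4X, RPS9, RPS14, RPS15, RPS16, RPS23, RPS26, RPS27 and RPS27A, and the 4 lower were RPS10, RPS12, RPS19 and RPS21. Leaving out each library in turn gave 12 to 20 higher, the most without control replicate 2, and 4 to 11 lower, with 11 without control replicate 1 and 8 without control replicate 2. Dropping a library can only add genes to such counts. The shares over all genes above are for 2 against 2 libraries and are not a like background for them. In the fit 13 of 28 had a log2 fold change above 0, and the median was -0.27 beside 0.36 over all genes tested. That median depended on the scaling: with DESeq2 size factors it was -0.62 beside 0.00 for all genes, and with library sizes alone it was 0.35 beside 1.01.

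No gene of the set passed the test in that comparison. The log2 fold change was 1.94 ± 1.45 for RPS4X (adjusted p = 0.489), 1.94 ± 1.48 for RPS23, a decoding-centre protein (0.498), and 1.79 ± 1.5 for RPSA (0.532). On the other side it was -1.62 ± 1.21 for RPS12 (0.486), -1.71 ± 1.28 for RPS21 (0.487) and -1.51 ± 1.06 for RPS3 (0.457, the smallest of the 28). In edgeR's quasi-likelihood fit 0 of the 28, and 0% of all genes tested, passed an adjusted p of 0.05, and 0 of the 28 had an unadjusted p under 0.05, beside 12% of all genes that were higher and 6.04% lower. By the Wald test of DESeq2 the count was also 0 of 28.

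The control libraries differed widely from each other. Between the controls the median gene of the 28 differed by 3.0-fold in nuclear CPM, 13 of 28 differed by more than 4-fold, and 6 were within 1.5-fold. RPS13, a body protein chosen for mention after its values were seen, was 26.1 and 899 nuclear CPM, a 34.5-fold difference. RPS29 and RPS24 were also higher in control replicate 2, by 28.5-fold and 12.7-fold, and FAU by 10.95-fold. RPS25 was higher in control replicate 1 by 10.6-fold, RPS3A by 6.91-fold and RPS28 by 5.84-fold. In all, 13 genes were higher in control replicate 1 and 15 in replicate 2, so the disagreement was not in a single direction.

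The 100 µM libraries were close to each other. Their median gene differed by 1.16-fold in nuclear CPM, 26 of 28 were within 1.5-fold, and the largest differences were 1.83-fold for RPS15 and 1.74-fold for RPS20. Spearman's correlation across the 28 genes, a description in which the genes are not independent replicates, was 0.881 between the 100 µM libraries and 0.331 between the controls. Beyond counting noise both pairs differed: a chi-square over the 28 genes divided by its degrees of freedom was 51.8 for the controls and 20.7 with 100 µM, where a pair that differs only by counting gives a value near 1. For the 10 µM pair it was 0.827 with 49 counts in all, so at this depth no difference in their makeup was detectable.

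**Figure D4:**
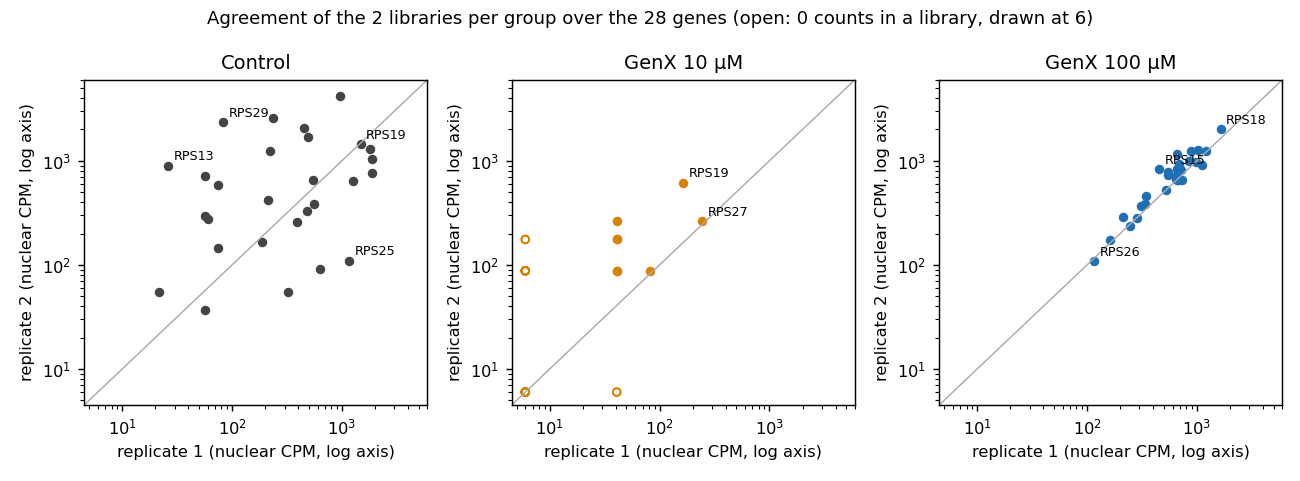
Nuclear CPM of the 28 genes in replicate 2 against replicate 1 (log axes) in each group, with the line of equal levels and open circles for genes at 0 in a library. The 100 µM genes lie along the line, with 26 of 28 within 1.5-fold, and the control genes scatter on both sides of it, with 13 of 28 beyond 4-fold.

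The makeup of the set differed in the same way. In control replicate 1 the leading genes were RPS21 and RPS7, with 12.1% and 12% of the counts on the set. In control replicate 2 they were RPS3 with 16.8% and FAU with 10.4%. The 5 leading genes held 53.1% and 51.9% of the set's counts in the vehicle controls, and 33.3% and 33.2% with 100 µM, where RPS18 led both libraries with 9.20% and 9.61%. From the most to the least counted gene the range was 86.8-fold and 114-fold in the controls and 14.2-fold and 18.4-fold at 100 µM. RPS26 was the least counted gene at 100 µM, at 0.649% and 0.522%.

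Position within the subunit was compared as well. The 12 genes whose proteins lie in the head, which turns during translocation, held 58.5% and 53.2% of the set's counts in the vehicle controls, 36.8% and 56.7% with 10 µM, and 50.7% and 51.5% with 100 µM. The 10 µM intervals, 16.3% to 61.6% and 37.4% to 74.5%, covered the values of every other library. At 10 µM against control 11 of the 12 head genes and 12 of the 16 body and platform genes were lower without overlap. Of the 3145 nuclear genes tested 32% were lower in that way. At 100 µM against control 3 head genes were higher and 3 lower, and 9 body and platform genes were higher and 1 lower. Of all nuclear genes tested 48.3% were higher and 9.57% lower in that comparison. The difference between the classes was not tested.

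The 100 µM libraries, the deepest, were used to order the genes by level per length. Per kilobase of exon, RPS12 led with 936 and 1052 nuclear CPM per kb (mean 994 ± 82.0, SD, n = 2), followed by RPS18 with 864 and 1058 (961 ± 137). The libraries of these 2 genes overlapped, so their order is not set. RPS25, a head protein that viral internal ribosome entry sites require, came next with 750 and 620 (685 ± 92.3), below RPS18 in both libraries. RPS21 followed with 644 and 636. At the low end were RPS23 with 68.0 and 67.5, RPS26 with 59.6 and 56.1 and RPS29 with 35.2 and 46.9. Of the 27 neighbouring pairs in this order 8 did not overlap between libraries.

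**Figure D5:**
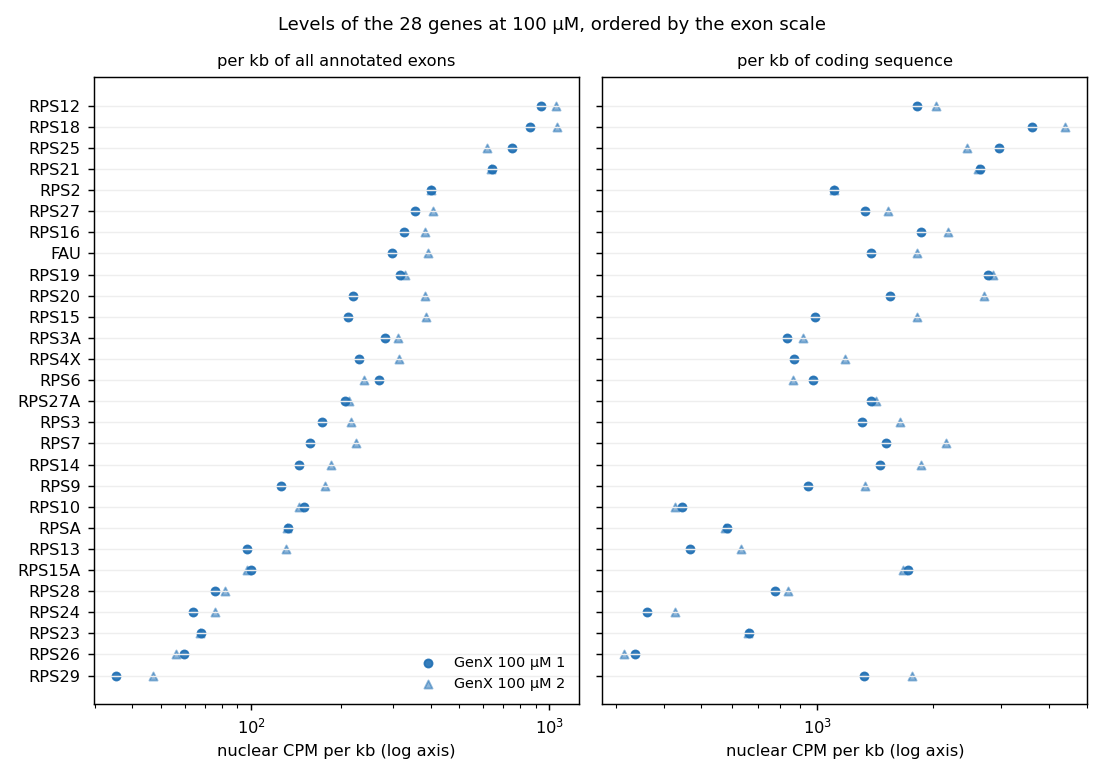
Nuclear CPM per kilobase of exon (left) and of coding sequence (right) for the 28 genes in the 100 µM libraries (log axes), both in the order of the exon scale, with 1 point per library. On the exon scale RPS12 and RPS18 lie at the top and overlap and RPS29 lies lowest at 35.2 and 46.9, and on the coding scale RPS26 lies lowest.

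The order depends on the length used. The deposited exon length sums every annotated exon, which is 9783 bases for RPS29 and 6679 for RPS15A, while their coding lengths are 261 and 390 bases. Per kilobase of coding length RPS18 ranked 1 with 3597 and 4403 nuclear CPM per kb, RPS19 ranked 2, RPS25 ranked 3, RPS21 ranked 4 and RPS12 ranked 7. RPS29 moved from rank 28 to rank 12, and RPS26 became the lowest with 336 and 316. Spearman's correlation between the orders was 0.668 across the 28 genes. The SD of the log2 levels was 1.20 in both libraries per exon length and 0.893 and 0.940 per coding length.

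Several genes share their locus with others, which bears on their counts because the strand setting and the handling of overlaps are not given in the sources used here. In the deposited gene models 10 of the 28 share exon bases with a gene on the same strand, 10 with a gene on the opposite strand, and 11 with none. RPS10 shares exons with the read-through gene RPS10-NUDT3, and FAU with SYVN1 on its own strand and MRPL49 on the other. Within 7 of the genes lie 14 annotated small nucleolar RNA genes on the same strand, among them SNORD15A and SNORD15B in RPS3 and SNORD100 and SNORD101 in RPS12. Some, such as SNORD15A in RPS3 and SNORD54 in RPS20, share exon bases with their host in the deposited models. Together the 14 had 1 count in control replicate 1, 15 in 100 µM replicate 2 and 0 in the 4 other libraries.

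Other genes of translation were taken from lists, chosen with earlier results of these data known, and their shares are given to place the small subunit. The large-subunit genes took 2.18% and 4.46% of nuclear counts in the vehicle controls, 0.163% and 0.412% with 10 µM, and 3.09% and 3.47% with 100 µM. Their control mean was 11.5 times the 10 µM mean, close to the 11.9 times of the small subunit. Of the 46 tested in the fit, 37 were lower at 10 µM than in the controls without overlap, and 45 were higher at 100 µM than at 10 µM. Over the 3145 nuclear genes tested these shares were 32% and 63.8%. The 32% lower, with 11.1% higher, also stands beside the 10 µM counts of the lists below. RPL37A and RPL38, the 2 with the highest shares, had 344 and 285 counts and 119 and 448 counts in the vehicle controls, 2 and 9 and then 1 and 1 with 10 µM. RPL8 had 184 and 141 counts in the vehicle controls, 0 and 0 with 10 µM, and 3431 and 2109 with 100 µM, and rose from 10 to 100 µM (adjusted p = 0.0381, edgeR).

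Elongation factors and other TOP mRNAs took 0.480% and 0.850% in the vehicle controls, 0.0408% and 0.0614% with 10 µM, and 1.12% and 1.09% with 100 µM. Of the 11 tested, 8 were lower at 10 µM without overlap. EEF1A1, which brings aminoacyl-tRNA to the ribosome, had 79 and 101 counts in the vehicle controls, 1 and 1 with 10 µM, and 6939 and 4059 with 100 µM, and it rose from 10 to 100 µM by 6.44 ± 1.36 on the log2 scale (SE, adjusted p = 0.0402, edgeR). TPT1, a TOP mRNA for a calcium-binding protein, had 491 and 66, then 1 and 1, then 4093 and 2789 counts, and rose by 5.79 ± 1.29 (adjusted p = 0.0408). Glycolytic enzymes, whose mRNAs are not TOP mRNAs, took 0.980% and 2.04%, then 0.180% and 0.210%, then 2.61% and 2.44%. Without overlap, 12 of the 15 tested were lower at 10 µM. From 10 to 100 µM ENO1 rose by 5.56 ± 1.08 (adjusted p = 0.0301) and LDHA by 5.20 ± 1.13 (0.0408, edgeR). A low share at 10 µM was thus measured in abundant cytosolic mRNAs of another pathway too.

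The shares of the initiation factors overlapped between control and 10 µM. They took 0.864% and 0.506% of nuclear counts in the vehicle controls, 0.233% and 0.544% with 10 µM, and 0.915% and 0.719% with 100 µM. Of the 23 tested, 6 were lower and 4 higher at 10 µM without overlap. EIF1, which monitors start-codon choice, had 64 and 115 counts in the vehicle controls, 8 and 11 with 10 µM, and 4692 and 2703 with 100 µM. In nuclear CPM this was 278 and 2110, then 326 and 964, then 2273 and 2089, so both 10 µM libraries lay inside the control range. EIF3A, the scaffold of the initiation complex that binds the small subunit, had 643 and 1 counts in the vehicle controls, 0 and 1 with 10 µM, and 1831 and 1001 with 100 µM. Small-subunit assembly factors took 0.250% and 0.341% in the vehicle controls, 0.118% and 0.0351% with 10 µM, and 0.193% and 0.197% with 100 µM. Only 6 of the 30 were tested, and 3 of these were lower at 10 µM without overlap. WDR43, a nucleolar assembly factor, had 176 and 30 counts in the vehicle controls, 1 and 0 with 10 µM, and 491 and 469 with 100 µM, and UTP15, another, had 3 and 105 counts in the controls and 0 and 2 in the 100 µM libraries. These lists were not tested against the small-subunit genes.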

How the data were processed

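RNA from kit-isolated mitochondria of HepG2 cells was measured in 6 libraries, 2 per dose. Per the labels' protocols, libraries were stranded and depleted of ribosomal RNA. The values used were whole-number read counts per gene as deposited by the authors, 1 table per library. Per the submitters' processing notes, the tools were FastQC, STAR, featureCounts and DESeq2 with GRCh38, with no versions. Neither the annotation release nor how featureCounts treated strand, overlaps and multimapping is given in the sources used here. 0 lines named no gene, and 56410 of 57500 identifiers matched the symbol table.

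Shares and CPM over nuclear genes were computed from the counts in Python 3.11.15. All 6 libraries entered 1 edgeR 4.0.16 model of group means in R 4.3.3 (filterByExpr, TMM, quasi-likelihood test, two-sided, Benjamini-Hochberg over 3180 genes), which was tested on simulated data. DESeq2 1.42.0, other scalings and filters, the 4 libraries compared alone, a replicate block and leaving out each library were alternatives. The SE beside each edgeR log2 fold change was back-calculated, as its size over the square root of the test's F statistic. Single values were tested by exact permutation. Coding lengths came from GENCODE v29. The genes given with every library's value were the 6 most and 3 least abundant, those at 0 in both libraries of a group, those past the threshold, and RPS6, RPS27A, FAU, RPS4X, RPSA and RPS3. The genes and lists were chosen with earlier results of these data known.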

Additional observations from a re-analysis of the deposited data

How the results depend on the processing

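Counts of calls depended on the processing, and the cause was not tested. For 10 µM against control, 19 of all genes and 0 of the 28 small-subunit genes passed. With library sizes alone, with nuclear genes only and with no filter the count over all genes was 7. With a mean of at least 5 CPM it was 91 (0.761% of 11953 genes tested) and 2 of the 28, RPS20 and RPS16. With the 4 libraries compared alone it was 206 of only 458 genes tested (45%) and 7 of the 15 small-subunit genes tested. Leaving out each library in turn gave 4 to 863 of all genes and 0 to 21 of the small-subunit genes. For 100 µM against control, 0 of the 28 passed under every alternative run. Over all genes 2 passed with DESeq2 size factors and 3 with its Wald test, and leaving out each library gave 0 to 215. For 100 µM against 10 µM, 91 of all genes and 0 of the 28 passed. The counts were 159 (5% of genes tested, and 4 of the 28) with library sizes alone, 42 with nuclear genes only, 503 with the Wald test and 3 with no filter. They were 290 (2.43%, and 11 of the 28) with a mean of at least 5 CPM and 269 (4.63%, and 9 of the 28) with the 4 libraries alone. Leaving out each library gave 16 to 1278, and 0 to 25 of the 28.

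Several values reversed, all for genes that were not called. For 100 µM minus control the share difference was 0.0132 points with all gene counts as the denominator, and -0.539 to 0.372 when each library was left out, and the ratio of the means was then 0.782 to 1.24. The median log2 fold change of the 28 genes was 0.35 with library sizes alone, 0.41 with no filter, 0.80 with a mean of at least 5 CPM and 0.06 to 0.65 without each library. RPS6 stood at 0.03, 0.40 and 0.80 in the same settings and -0.48 to 1.02 without each library, RPS21 at -2.14 to 0.12 and RPS29 at -2.20 to 1.67. For 10 µM against control RPS27 stood at -1.22 to 0.09. The summed share of the 28 genes, lower at 10 µM than in either other group, kept that direction under every alternative run.

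With the replicate number as a block, 73 of all genes (2.3% of those tested) and 2 of the 28 (RPS20, RPS3) passed for 10 µM against control. For 100 µM against control 22 of all genes (0.692%) passed, with a median log2 fold change of 0.22 for the 28. For 100 µM against 10 µM 137 of all genes (4.31%) and 1 of the 28 (RPS20) passed. Correlations of the deviations of same-numbered libraries were 0.000363 (control with 10 µM), 0.00313 (control with 100 µM) and -0.0222 (10 µM with 100 µM). Counting noise is large in the shallow libraries, so values near 0 cannot show whether same-numbered libraries shared a culture or day. The labels do not state it. The coding length from RefSeq proteins was not run, and GENCODE v29 coding length was chosen after seeing the data, as were the counts of groups without overlap and the limit of 3 counts in them. Depth limits the 10 µM values, where 19 and 30 counts fell on the 28 genes.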
